A study of Manis javanica with 3 samples.

Results

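The genes described here are the immediate early response genes FOS, FOSB, JUN, JUNB, JUND, EGR1, ATF3, IER2, IER3 and MYC of the Malayan pangolin (Manis javanica). They were chosen by the gene symbol in the Swiss-Prot entry of the deposited annotation, and gene models with the same symbol were told apart by the product named in the NR entry. Of 24220 genes in the expression tables, 14 carried 1 of the 10 symbols. The NR entry named 9 of them as the genes themselves and the other 5 as paralogs, which were FOSL1, FOSL2, JDP2, MYCN and MYCL. IER2 carried no such symbol and was found by its NR entry only, so it is described beside the 9 members and is left out of their counts unless this is stated.

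The study sequenced RNA of organs that take part in digestion, to describe the genes an ant-eating mammal uses for it. All tissues came from 1 wild adult female, which died naturally while it was being rescued, and were taken after death. Small intestine, salivary glands and liver gave 1 library each, without treatment, and these names stand for the libraries throughout. No value below has a replicate check, and no test between tissues was possible. Total counts were 10158924 for small intestine, 8318686 for salivary glands and 14568778 for liver. Values are given as counts, the fragments assigned to a gene, and as FPKM, which scales them for transcript length and mapped fragments. Intervals are exact 95% Poisson intervals for levels and exact 95% Clopper-Pearson intervals for ratios, and they cover counting error only; for genes with several transcripts, whose counts look rounded from estimated parts, they are approximate. Ratios between libraries were taken from counts scaled by TMM, a trimmed mean that lets the bulk of genes match between libraries, and a gene was counted as higher or lower at a ratio of 2-fold or more with at least 10 counts in at least 1 of the 2 libraries compared.

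Immediate early genes are transcribed within minutes of a stimulus from factors already present in the cell, without new protein synthesis, and most of their messenger RNAs are short-lived. Fos and Jun proteins pair to form AP-1, a transcription factor that binds regulatory DNA of later response genes, while EGR1, ATF3 and MYC are transcription factors of other families. These genes respond to growth factors, feeding, injury and many kinds of cell stress.

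The labelled tissues were first set against marker genes. In liver 7 of 8 hepatocyte markers had an FPKM above 1, led by FGB with 12822, and 0 of the 8 had a count of 0. In salivary glands 2 of the 4 salivary gland markers that could be found had an FPKM above 1, led by AQP5 with 94.3, while BPIFA1 had a count of 0. In the library labelled small intestine 1 of 9 enterocyte markers had an FPKM above 1, VIL1 with 24.0, and FABP2, FABP6 and LCT had counts of 0. A count of 0 allows up to 0.295 CPM (counts scaled by total count alone, without TMM) there, 0.361 in salivary glands and 0.206 in liver. The gastric markers summed to an FPKM of 153261 in the library labelled small intestine, with 9 of 10 above 1 and pepsin A (PGA) highest at 94138. Their sum was 124 in salivary glands, led by PGA and with LIPF at 0, and 0.503 in liver, where 9 of the 10 had counts of 0 and TFF2 was the most abundant. Apart from LIPF, each was 474-fold (ATP4B) to 2789-fold (TFF1) higher in the library labelled small intestine than in salivary glands. The source of the gastric counts in salivary glands was not tested. The enterocyte markers summed to 26.0 in the library labelled small intestine, 26.8 in salivary glands and 66.5 in liver. In liver 5 of 9 had an FPKM above 1, and VIL1 was the most abundant in each library. The name small intestine is therefore that of the label, and apart from VIL1 no enterocyte marker reached an FPKM of 1 in this library. VIL1 does not set it apart, with 24.0 beside 25.7 in salivary glands and 21.2 in liver. By these markers the library labelled small intestine has a gastric profile and not an enterocyte profile, and its levels below are to be read so.

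As gene models, the 10 genes were compact. Their median span on the scaffold was 3152 bases, beside 13826 bases over all 24220 genes, while the median listed transcript length was 2142 bases beside 2251. JUN, JUNB, IER2 and IER3 each spanned exactly their listed length, which leaves no room for an intron, and the same held for 4.98% of all genes. JUNB and IER2 lay on 1 scaffold, 260729 bases apart with 19 genes between them.

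FOS (gene13893, scaffold NW_016537440.1, 106825 to 111720, plus strand; the build is not given in the sources used here) encodes the founding Fos protein. It had an FPKM of 16.05 (interval 14.3 to 17.9, 316 counts) in small intestine, 28.3 (26.3 to 30.5, 702 counts) in salivary glands and 43.3 (41.2 to 45.5, 1586 counts) in liver. The liver library was highest and the small intestine library lowest, and the 3 counting intervals did not overlap. The ratio of small intestine to liver was −1.57 on the log2 scale (−1.75 to −1.39), or 2.96-fold lower. Salivary glands over liver gave −0.59 (−0.72 to −0.46), under 2-fold. The log2 ratio of small intestine to salivary glands was −0.98 (−1.18 to −0.79), just short of 2-fold, and it passed 2-fold when counts were scaled by total count or by upper quartile.

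FOSB (gene24328, scaffold NW_016562666.1, 20875 to 25955, plus strand), a Fos protein that is also made as a shortened form, was the least abundant of the genes in all 3 libraries. Its FPKM was 0.269 (0.0986 to 0.585, 6 counts) in small intestine, 1.002 (0.642 to 1.49, 24 counts) in salivary glands and 1.64 (1.23 to 2.13, 55 counts) in liver. The order was the same as for FOS, but the intervals of the salivary gland and liver libraries overlapped. The ratio of small intestine to liver was −2.44 on the log2 scale (−3.94 to −1.22), and the 6 counts behind it left the interval wide. The ratio of small intestine to salivary glands was −1.83 (−3.41 to −0.50), an interval that reaches below 2-fold.

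Within the Fos family the paralog FOSL2 (gene2250), an AP-1 subunit that like other Fos proteins pairs with Jun proteins, ran in another order. Its FPKM was 116 (113 to 119) in small intestine, 30.8 (29.5 to 32.1) in salivary glands and 40.8 (39.6 to 42.1) in liver. It was highest where FOS and FOSB were lowest, with a ratio of small intestine to liver of 1.42 on the log2 scale (1.37 to 1.48). FOSL1 (gene6985) had 3, 3 and 27 counts, in the order small intestine, salivary glands, liver. Of the summed FPKM of the Fos family, FOSL2 made up 87.5% in small intestine, 51.1% in salivary glands and 47.0% in liver. The share of FOS was 12.1%, 47.0% and 49.8%, in the same order. FOS and FOSL2 were thus close to each other in the salivary gland and liver libraries and far apart in small intestine.

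**Figure D1:**
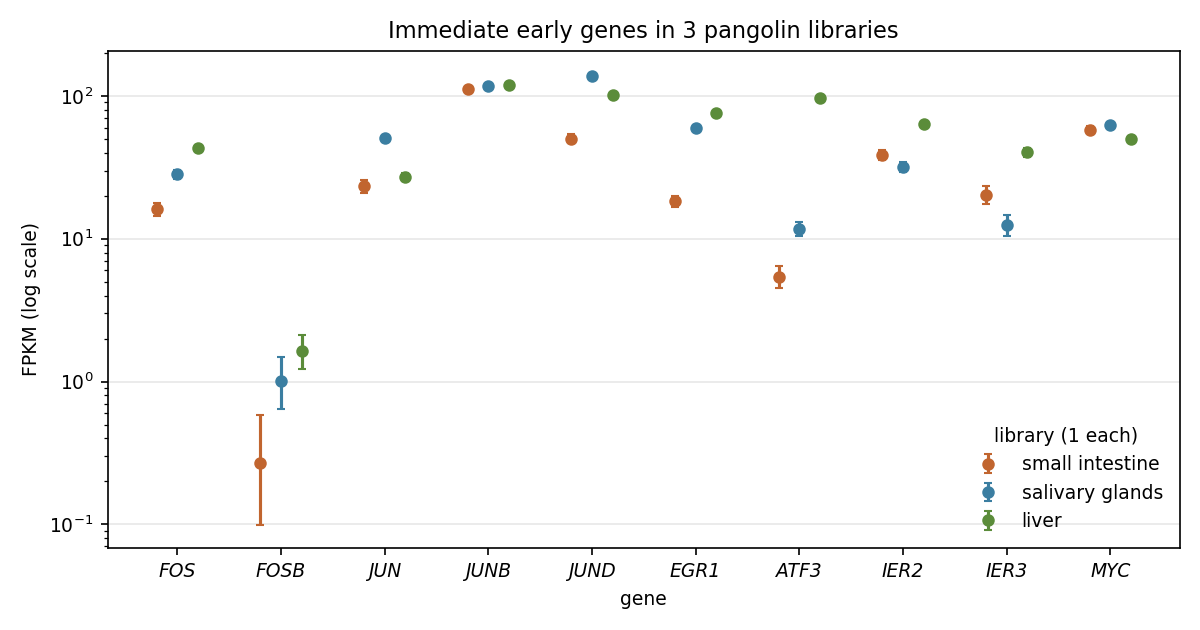
FPKM (log axis) of the 10 immediate early genes by library, 1 library each, with bars for the exact 95% Poisson interval of the count carried over to FPKM. JUNB lies between 111 and 119 in the 3 libraries, while ATF3 runs from 5.42 to 96.1.

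JUN (gene24271, scaffold NW_016562299.1, 209525 to 211265, plus strand) encodes c-Jun, the AP-1 subunit that is activated by the stress kinase JNK. Its FPKM was 23.3 (21.0 to 25.7, 399 counts) in small intestine, 50.4 (47.4 to 53.5, 1036 counts) in salivary glands and 27.0 (25.2 to 28.9, 852 counts) in liver. The salivary gland library stood above the others, whose intervals overlapped. Small intestine over salivary glands was −1.21 on the log2 scale (−1.38 to −1.04), or 2.31-fold lower. Salivary glands over liver was 0.87 (0.74 to 1.005), and it passed 2-fold when counts were scaled by total count or without the most abundant genes. Small intestine over liver was −0.34 (−0.51 to −0.16).

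JUNB (gene11293, scaffold NW_016534971.1, 568676 to 571118, minus strand), a Jun protein with weaker activity than c-Jun in many settings, had similar levels in the 3 libraries. Its FPKM was 111 (107 to 115, 2726 counts) in small intestine, 117 (113 to 121, 3340 counts) in salivary glands and 119 (116 to 122, 5590 counts) in liver. Neighbouring intervals in this order overlapped. The log2 ratio was −0.28 for small intestine over liver, −0.15 for salivary glands over liver and −0.12 for small intestine over salivary glands. The sign of the first turned without the most abundant genes, to 0.04, and that of the second turned with total counts, to 0.07, and without the most abundant genes, to 0.18. JUNB stood within the top 1.58% of all genes by FPKM in small intestine, 1.59% in salivary glands and 2.24% in liver.

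JUND (gene17031, scaffold NW_016541346.1, 21139 to 23379, minus strand) is the Jun gene known for steady expression in resting cells. Its FPKM was 50.3 (47.0 to 53.8, 852 counts) in small intestine, 138 (133 to 144, 2664 counts) in salivary glands and 102 (98.7 to 106, 3422 counts) in liver. The salivary gland library was highest and the small intestine library lowest, without overlap of the intervals. Small intestine over liver was −1.25 on the log2 scale (−1.36 to −1.14), which fell under 2-fold when the most abundant genes were left out of the scaling. Small intestine over salivary glands was −1.48 (−1.59 to −1.36), or 2.78-fold lower, and salivary glands over liver was 0.23 (0.16 to 0.30).

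Summed over JUN, JUNB and JUND, the FPKM of the Jun family was 184 in small intestine, 306 in salivary glands and 248 in liver. JUNB held 60.1% of it in small intestine, 38.3% in salivary glands and 47.9% in liver. JUND held 27.3%, 45.3% and 41.2%, in the same order, and was the largest Jun transcript in salivary glands. The Jun sum was 1.39 times the Fos sum in small intestine, 5.07 times in salivary glands and 2.85 times in liver. In bulk tissue a lower level in fewer cells and less RNA per cell cannot be told apart, and this holds for every ratio given here.

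**Figure D2:**
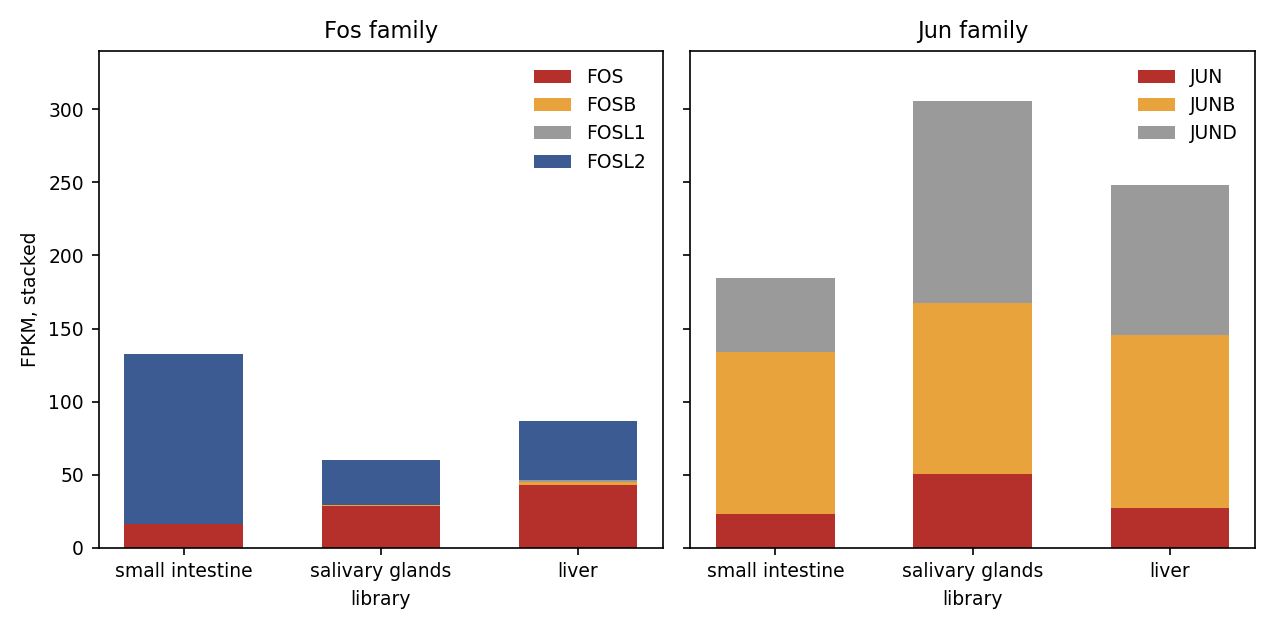
Stacked bars of FPKM for the Fos family (FOS, FOSB, FOSL1, FOSL2) and the Jun family (JUN, JUNB, JUND) in each of the 3 libraries, 1 library per bar, with no error drawn. FOSL2 makes up 87.5% of the Fos bar in small intestine, and the Jun bar is tallest in salivary glands at 306.

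EGR1 (gene9975, scaffold NW_016534015.1, 38989 to 42848, plus strand) encodes a zinc finger factor induced through serum response factor and ERK signalling. Its FPKM was 18.3 (16.7 to 19.95, 505 counts) in small intestine, 59.9 (57.3 to 62.5, 2054 counts) in salivary glands and 76.1 (73.8 to 78.5, 4081 counts) in liver. The liver library was highest, the salivary gland library followed, and the small intestine library was far below both. Small intestine over liver was −2.26 on the log2 scale (−2.39 to −2.12), or 4.77-fold lower. Against salivary glands, small intestine gave −1.86 (−1.998 to −1.71), or 3.62-fold lower. Salivary glands over liver was −0.40 (−0.48 to −0.32), under 2-fold.

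ATF3 (gene20483, scaffold NW_016547470.1, 46328 to 58734, plus strand), a factor of the ATF/CREB family induced by many kinds of cell stress, had the ratios farthest from 1 among the members in both comparisons with liver. Its FPKM was 5.42 (4.52 to 6.44, 129 counts) in small intestine, 11.7 (10.4 to 13.1, 315 counts) in salivary glands and 96.1 (92.4 to 99.9, 2535 counts) in liver. The liver library stood far above both others, and the 3 intervals did not overlap. Small intestine over liver was −3.54 on the log2 scale (−3.80 to −3.28), or 11.6-fold lower. Salivary glands over liver was −2.42 (−2.59 to −2.25), or 5.34-fold lower. On deposited FPKM these log2 ratios were −4.15 and −3.04, moves of over 1.5 times. Against salivary glands, small intestine gave −1.12 (−1.43 to −0.82), an interval that reaches below 2-fold.

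The level of ATF3 beside other genes depended on the transcript length used. The deposited FPKM was 3.33 times the depth-scaled counts per listed kilobase in small intestine, 2.41 times in salivary glands and 4.30 times in liver, beside medians of 1.30, 0.904 and 1.16 over genes with at least 100 counts, so the FPKM implies a transcript shorter than the listed 7792 bases, by an amount that differs between the libraries. In liver ATF3 was in place 3 of the 10 genes by FPKM and in place 9 by counts per listed kilobase. Ratios of counts between libraries do not use this length, but they are not corrected for an implied length that differs between libraries. The paralog JDP2 (gene12462), a repressor of AP-1 that carries the symbol ATF3 in Swiss-Prot, ran in another order. Its FPKM was 19.3 in small intestine, 1.31 in salivary glands and 4.43 in liver, so the library with the lowest ATF3 had the highest JDP2.

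IER3 (gene19835, scaffold NW_016546153.1, 66134 to 67313, minus strand) encodes IEX-1, a small protein that acts on cell survival. Its FPKM was 20.3 (17.6 to 23.3, 202 counts) in small intestine, 12.4 (10.5 to 14.6, 149 counts) in salivary glands and 40.2 (37.4 to 43.2, 735 counts) in liver. The liver library was highest and the salivary gland library lowest, which no other of the 9 members showed. Salivary glands over liver was −1.71 on the log2 scale (−1.98 to −1.46), or 3.28-fold lower. Small intestine over liver was −1.10 (−1.34 to −0.88), which fell under 2-fold on deposited FPKM and without the most abundant genes. Small intestine over salivary glands was 0.61 (0.30 to 0.92).

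IER2 (gene11274, scaffold NW_016534971.1, 306096 to 307946, minus strand), a small nuclear protein, had an FPKM of 38.6 (35.7 to 41.7, 647 counts) in small intestine, 31.7 (29.3 to 34.2, 640 counts) in salivary glands and 63.2 (60.5 to 66.0, 2047 counts) in liver. It followed the order of IER3, with the liver library highest. Salivary glands over liver was −1.09 on the log2 scale (−1.22 to −0.96), or 2.12-fold lower, which fell under 2-fold with total counts, on deposited FPKM and without the most abundant genes. Small intestine over liver was −0.90 (−1.03 to −0.77), and it passed 2-fold with total counts, at −1.14. Small intestine over salivary glands was 0.18 (0.02 to 0.34), and its sign turned with total counts, to −0.27.

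MYC (gene1062, scaffold NW_016527812.1, 396707 to 401733, plus strand) encodes a factor that pairs with MAX and drives genes of growth and ribosome synthesis. Its FPKM was 57.9 (54.6 to 61.3, 1159 counts) in small intestine, 62.2 (59.1 to 65.4, 1521 counts) in salivary glands and 49.8 (47.5 to 52.1, 1785 counts) in liver. The liver library was lowest, and the intervals of the other libraries overlapped. No ratio of MYC reached 2-fold, with 0.14 for small intestine over liver, 0.36 for salivary glands over liver and −0.22 for small intestine over salivary glands on the log2 scale. The first turned to −0.10 with total counts. MYC made up 94.5% of the summed FPKM of MYC, MYCN and MYCL in small intestine, 96.6% in salivary glands and 95.7% in liver.

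**Figure D3:**
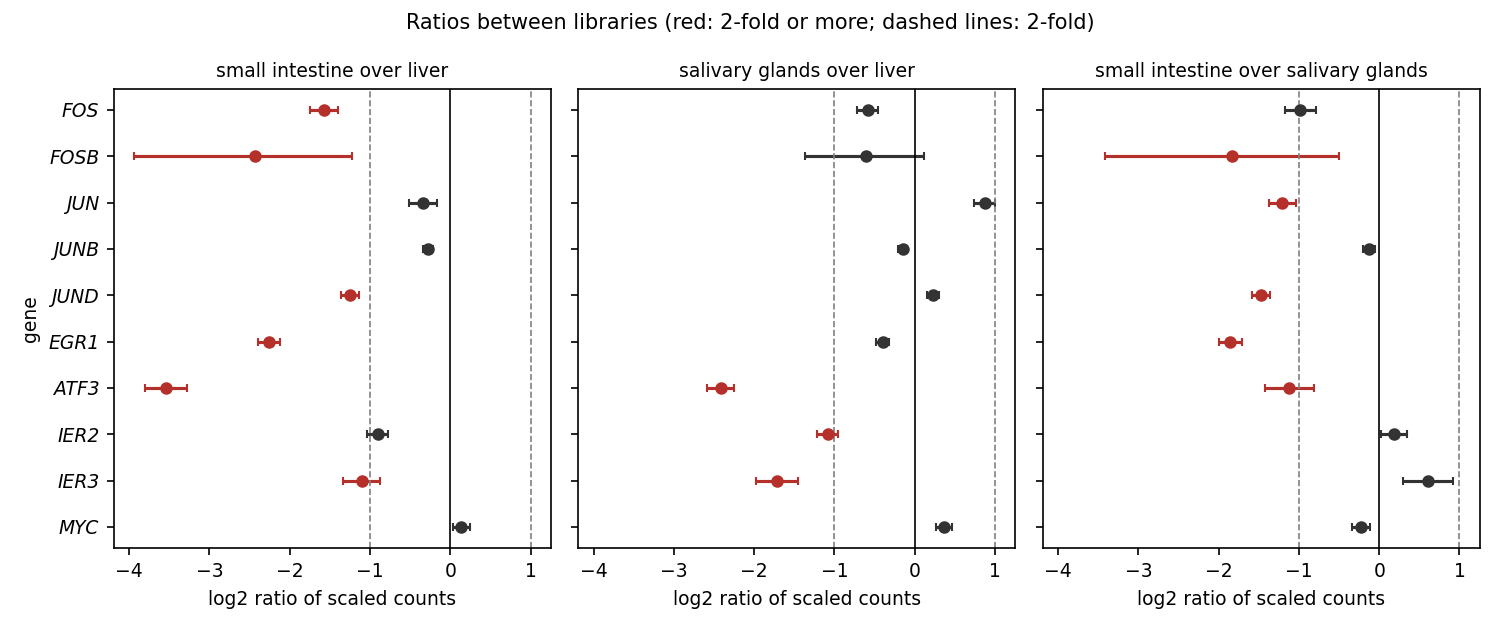
Log2 ratios of TMM-scaled counts for the 10 genes in the 3 comparisons of libraries, with exact 95% Clopper-Pearson intervals that cover counting error only; dashed lines mark 2-fold and red points lie at or past it. No gene lies 2-fold or more higher in the first library, and ATF3 in small intestine over liver is farthest from 0 at −3.54.

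Taking the libraries pair by pair, each comparison shares its libraries with the others, so the 3 are not independent. Between small intestine and liver, 6 of 9 members were lower in small intestine (FOS, FOSB, JUND, EGR1, ATF3 and IER3) and 0 were higher, beside 24.2% of 17399 genes lower and 24.2% higher. The median log2 ratio was −1.25 over the members and −0.08 over all genes. The remaining JUN, JUNB and MYC lay within 2-fold.

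Between salivary glands and liver, 2 of 9 members were lower in salivary glands (ATF3 and IER3) and 0 were higher, beside 24.9% of 17162 genes lower and 22.9% higher. The share of the members was close to that of all genes. Their median log2 ratio was −0.40, beside −0.07 over all genes. With total counts, and also without the most abundant genes, 1 member (JUN) was higher in salivary glands and 2 were lower.

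Between small intestine and salivary glands, 5 of 9 members were lower in small intestine (FOSB, JUN, JUND, EGR1 and ATF3) and 0 were higher, beside 16.9% of 16519 genes lower and 20.6% higher. The balance of all genes turned with total counts, where 4700 were lower and 2605 higher, instead of 2797 and 3406. There 6 members were lower, with FOS added. The median log2 ratio was −1.12 over the members and −0.02 over all genes. IER3 was the 1 member with a ratio above 1. With the 5 paralogs counted in, FOSL2, JDP2 and MYCN were higher in small intestine than in each of the other libraries, though for MYCN over salivary glands, at 1.17 on the log2 scale, the interval (−0.51 to 3.07) includes no difference.

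Together the 10 genes held 0.0683% of all fragments counted for small intestine (0.0667 to 0.06995%, 95% Wilson interval), 0.1496% in salivary glands (0.147 to 0.152%) and 0.156% in liver (0.154 to 0.158%). The share in small intestine was the lowest, and there 1 gene alone took 22.96% of the counts, against 7.94% for the most abundant gene of salivary glands and 3.68% for that of the liver library. The summed FPKM of the 10 genes was 341, 513 and 618, in the same order. By FPKM the first places went to JUNB, MYC and JUND in small intestine, to JUND, JUNB and MYC in salivary glands, and to JUNB, JUND and ATF3 in liver.

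Markers of other cell types also moved between the libraries. The smooth muscle markers summed to an FPKM of 3169 in small intestine, 349 in salivary glands and 30.2 in liver, with all 5 of 5 found and TAGLN the most abundant in each, and 0 of the 5 had a count of 0. The macrophage and neutrophil markers, 7 of 8 found, summed to 365, 23.1 and 198, in the same order, and S100A8 was the most abundant in each. S100A8 alone made up 354 of the 365 in small intestine, and without it the sums were 10.8, 9.29 and 93.2, highest in liver. MARCO, MPO and CSF3R had counts of 0 in small intestine and MPO had a count of 0 in salivary glands, while 0 of the 7 had a count of 0 in liver. CD163, a macrophage receptor, had an FPKM of 7.67, 6.96 and 61.0, so it was highest in liver, as were FOS, EGR1 and ATF3. The 5 B and plasma cell markers summed to 2.35, 11.8 and 40.1, in the same order, led by JCHAIN, and MS4A1 had a count of 0 in the first and the second library and CD79B in the first. The part of these cells in the levels of the immediate early genes was not tested.

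Genes that act with the immediate early genes were counted in the same way. For comparison, the shares of all genes were 24.2% lower and 24.2% higher in small intestine than in liver, 24.9% and 22.9% in salivary glands against liver, and 16.9% and 20.6% in small intestine against salivary glands. Of the AP-1 relatives and partners, 10 had enough counts between small intestine and liver, and 5 were lower and 3 higher in small intestine. Between salivary glands and liver, 7 of 10 were lower in salivary glands and 1 was higher, and between small intestine and salivary glands 3 of 8 were higher in small intestine and 0 lower. The median log2 ratios of the list in the 3 comparisons, in the order small intestine over liver, salivary glands over liver, small intestine over salivary glands, were −0.97, −1.79 and 0.52, beside −0.08, −0.07 and −0.02 over all genes. MAFK, a small Maf protein that binds AP-1-like sites, had an FPKM of 32.0, 22.0 and 78.4, in the order small intestine, salivary glands, liver. BATF2, an AP-1 factor of immune cells, had 71 counts, 1 count and 830 counts, with the liver library highest. JDP2 was 13.0-fold higher in small intestine than in salivary glands.

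The other early transcription factors showed no single direction. Of 11 with enough counts, 2 were lower and 2 higher in small intestine than in liver, and 4 were lower and 4 higher in salivary glands than in liver. Between small intestine and salivary glands 3 of 10 were lower and 1 was higher in small intestine. NR4A1, an orphan nuclear receptor induced early, had an FPKM of 52.7, 164 and 81.3, in the order small intestine, salivary glands, liver, and was highest in salivary glands, as JUN was. KLF4 had 46.2, 48.3 and 7.56 and was lowest in liver. EGR3, a relative of EGR1, had 51, 28 and 6 counts, an order opposite to that of EGR1. In the 3 comparisons the list had median log2 ratios of −0.49, 0.51 and −0.28.

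Of 24 early feedback and RNA decay genes, many of which limit the early response, 8 were lower and 3 higher in small intestine than in liver. Between salivary glands and liver 9 were lower and 7 higher in salivary glands, and between small intestine and salivary glands 9 were lower and 6 higher in small intestine. GADD45G, a stress-induced growth regulator, had an FPKM of 28.9, 334 and 255, lowest in small intestine, as EGR1 and JUND were. BTG2, which promotes removal of poly(A) tails, had 67.6, 267 and 155. CTGF, a secreted matrix protein, had 12.7, 196 and 4.30 and was 51.9-fold higher in salivary glands than in liver. DUSP2, a phosphatase of MAP kinases, had 21, 4 and 282 counts and was highest in liver. The median log2 ratios of these genes were −0.42, 0.19 and −0.63 in the 3 comparisons.

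The upstream kinases and factors carry the signal to these genes. Of 15 genes, 2 were lower and 2 higher in small intestine than in liver, and 3 were lower and 4 higher in salivary glands than in liver. Between small intestine and salivary glands 1 was lower and 1 was higher in small intestine. MAP2K2, a kinase that activates ERK, had an FPKM of 62.3, 97.4 and 410 and was highest in liver. MAPK3, the ERK1 kinase, had 133, 170 and 70.1 and was lowest there. ELK4, a partner of serum response factor, had 5.72, 20.3 and 15.2 and was lowest in small intestine. Their median log2 ratios were 0.06, 0.29 and −0.19.

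Of the 9 genes of the MYC network, 1 was lower and 2 were higher in small intestine than in liver. Between salivary glands and liver 2 of 8 were lower and 2 higher in salivary glands, and between small intestine and salivary glands 2 of 9 were lower and 1 was higher in small intestine. MAX, the partner of MYC, had an FPKM of 19.1, 17.8 and 29.5 and was highest in liver, where MYC was lowest by FPKM. That place of MYC depended on the scaling, as its log2 ratio of small intestine to liver turned to −0.10 with total counts. MXD4, which competes with MYC for MAX, had 13.02, 35.7 and 9.71 and was highest in salivary glands. MYCN had 10, 5 and 4 counts, and its log2 ratio of small intestine to liver was 2.08 with a wide interval (0.29 to 4.21). The median log2 ratios of the list were −0.64, −0.36 and 0.07.

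Stress response genes, several of them targets of ATF4, came next. Of 13 genes, 10 (76.9%) were lower and 1 was higher in small intestine than in liver, beside 24.2% of all genes lower. Between salivary glands and liver 6 of 13 were lower and 0 higher in salivary glands, and between small intestine and salivary glands 3 were lower and 1 was higher in small intestine. ATF4 had an FPKM of 305, 400 and 701, in the order of FOS, EGR1 and ATF3. TRIB3 had 6.51, 9.28 and 47.2, and CHAC1 had 12, 36 and 160 counts, in the same order again. HSPB1, a small heat shock protein, had 837, 257 and 276 and was highest in small intestine. The list had median log2 ratios of −1.28, −0.73 and −0.73 in the 3 comparisons.

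Housekeeping genes, which most cell types use, were counted too. Of 9 genes, 1 was lower and 0 were higher in small intestine than in liver, 4 were lower and 1 was higher in salivary glands than in liver, and 4 were higher and 0 lower in small intestine than in salivary glands. RPLP0, a ribosomal protein, had an FPKM of 1890, 1734 and 860.2. GAPDH, a glycolytic enzyme, had 703, 306 and 1017, and B2M, the light chain of MHC class I, had 286, 122 and 959.5. The housekeeping medians were 0.38, −0.43 and 0.71.

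**Figure D4:**
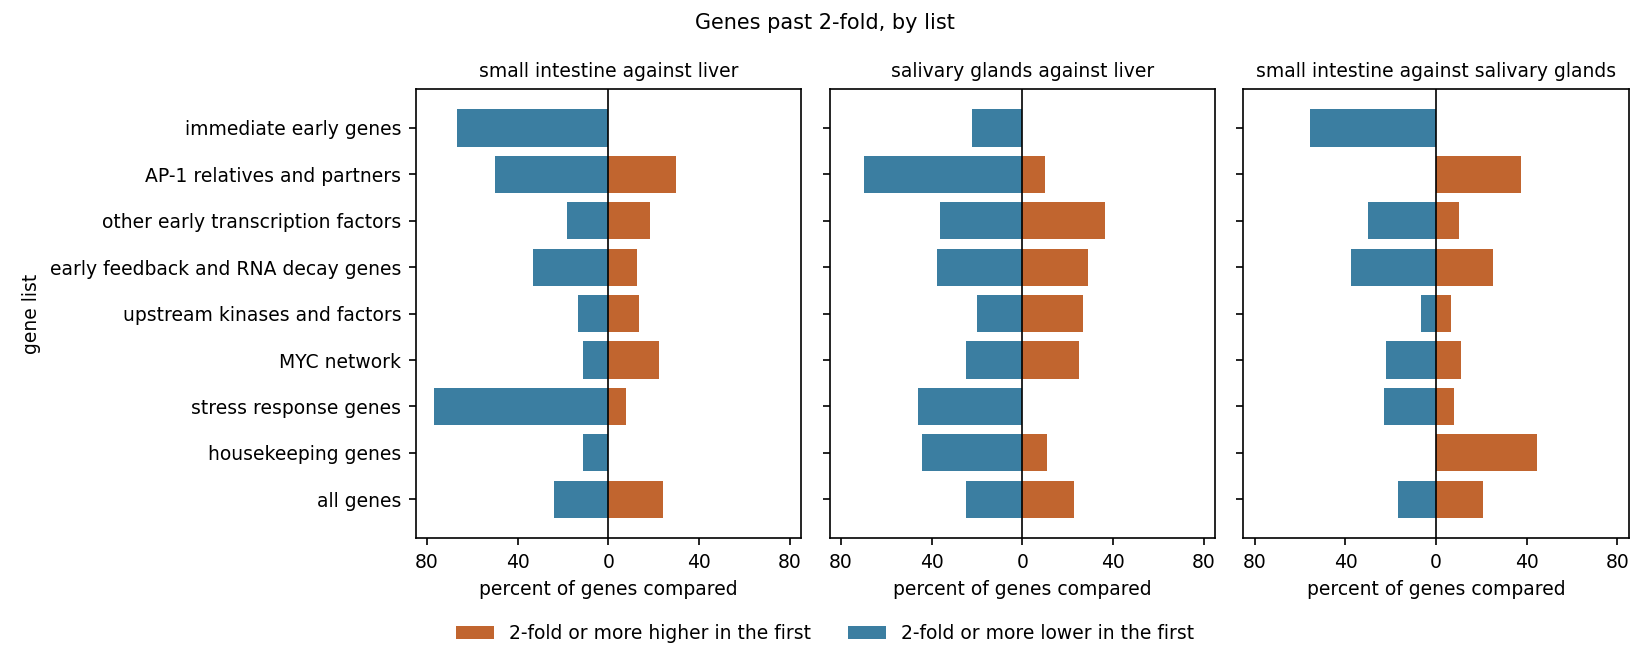
Percent of the genes compared that lie 2-fold or more higher (right of 0) or lower (left of 0) in the first library, for the 9 immediate early genes, 7 related lists and all genes, in the 3 comparisons. The bars of the immediate early genes point left only, with 6 of 9, 2 of 9 and 5 of 9 genes.

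The pattern of FOS over the 3 libraries was set beside that of 3916 annotated genes with an FPKM of at least 10 in all libraries, by the Euclidean distance of centred log2 FPKM. A distance of at most 0.25 from FOS was found for 77 genes, or 1.97% of them. The 5 nearest were gene3651 (YIF1B by its NR entry, distance 0.0353), ZCRB1 (0.0473), SEC61G (0.0584), YIPF5 (0.0636) and KDELR2 (0.0636). SEC61G had an FPKM of 71.6, 131 and 190.1, lowest in small intestine and highest in liver, as for FOS. With 3 libraries behind it, such a likeness is a description only.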

How the data were processed

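RNA of 3 tissues of 1 animal was sequenced in pairs on an Illumina instrument. Reads with adaptors or many poor bases were dropped by the authors, who used TopHat2 for alignment to the pangolin genome and Cufflinks for new genes. The deposited count is a whole number of fragments per gene, not scaled between libraries. For genes with several transcripts it looks rounded from estimated parts. The deposited FPKM was made by the authors, who name RSEM for it. The deposited score is close to the count times 1 factor per library, and was used only as an alternative scaling. The tool behind the counts is not given in the sources used here, and neither is the genome build. Names came from the deposited annotation, by the KEGG symbol or else the Swiss-Prot symbol for the related lists and markers, with the NR entry deciding between paralogs and IER5, GKN2, APOA4 and JCHAIN found by it. Where 1 product had several models, the model with most counts was taken.

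TMM factors came from edgeR 4.0.16 in R 4.3.3, and were 0.851 for the small intestine, 1.17 for the salivary gland and 1.005 for the liver library. Intervals came from scipy 1.17.1, figures from matplotlib 3.10.9 and all other steps from pandas 2.3.3 and numpy 2.4.6 in Python 3.11.15. A count of 0 was limited at 3 counts. The fold calls were tried on simulated counts drawn from a single pooled profile, with some genes changed 4-fold. Such counts lack the differences in composition between these libraries and any spread between animals, so they do not check the calls made here. Alternatives were total counts, upper quartile, total counts without the 10 most abundant genes of each library, deposited FPKM, the authors' score, 4-fold, no count minimum and other ways of naming members. Named genes were all members, in each related list the 2 with the highest FPKM in any library and the 2 with the largest called ratios, the 5 genes nearest to FOS, and in each marker list the most abundant gene and those at 0. FOSL1, MYCL and CD163 were named after their values were seen. The members and lists were chosen with earlier results of these data known.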

Additional observations from a re-analysis of the deposited data

How the results depend on the processing

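Under the other scalings and without a count minimum, the number of members past 2-fold stayed within 1.5 times that reported. At 4-fold it was 3 for small intestine against liver, 1 for salivary glands against liver and 0 for small intestine against salivary glands, as a stricter limit takes fewer genes. The share of all genes was taken at 2-fold only, so these 4-fold numbers have no share to be read against. With the 5 paralogs added, a choice made after seeing the data, it was 10, 4 and 8, from 14 genes instead of 9. These were 3 higher and 7 lower, 0 and 4, and 3 and 5, so that no member was higher in small intestine holds only without the paralogs. With an FPKM minimum of 1 the genes near FOS numbered 226 among 10961, and 1 of the 5 nearest was shared. Of 150 alternative ratios of the 10 genes, 54 moved beyond their counting interval, 0 called ratios changed sign and 5 uncalled ones did. The related lists without housekeeping genes had 13 genes higher and 28 lower in small intestine than in liver, 11 and 32 with total counts and 12 and 28 on FPKM. For salivary glands against liver the numbers were 18 and 31, with total counts 23 and 24 and on FPKM 17 and 31. For small intestine against salivary glands they were 13 and 18, with total counts 10 and 29 and on FPKM 16 and 16. The lean to lower levels thus depended on the scaling, and all genes shifted with it as well. In the first comparison 4218 of all genes were higher and 4213 lower, with total counts 3769 and 5126 and on FPKM 4265 and 4462. In the second they were 3936 and 4277, 4582 and 3695, and 3678 and 4804, in the same order. In the third they were 3406 and 2797, 2605 and 4700, and 3670 and 2566. The authors' score, added after seeing the data, called 6, 2 and 5 members. The median log2 ratio of all genes went from −0.08 to −0.32 with total counts and 0.24 without the most abundant genes for small intestine over liver. For salivary glands over liver it went from −0.07 to 0.15, 0.26 and, on FPKM, −0.20. For small intestine over salivary glands it went from −0.02 to −0.47 with total counts and 0.09 on FPKM. The share of higher among called genes was 50.03%, 47.9% and 54.9% in these comparisons. Without the most abundant genes it was 61.0% and 59.1% in the first and the second, and with total counts 35.7% in the third. The cause was not tested. Depth limits FOSB, with 6 counts in the small intestine library. No paired analysis was possible because each tissue is 1 library and the result comes from no test.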

Other observations

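Marker lists of other cell types, summed as FPKM, were also compared between the libraries. The 5 endothelial markers summed to 45.2 in small intestine, 23.7 in salivary glands and 35.02 in liver, led by PECAM1 in each and with 0 markers at 0. Of 6 erythroid markers 3 were found, with sums of 4.06, 0.0625 and 0.512 in the same order, and SLC4A1 had a count of 0 in all 3 libraries, HBB in salivary glands and ALAS2 in liver. HBB led in the small intestine and liver libraries and ALAS2 in salivary glands. Markers of hepatocytes summed to 14548 in liver, of which FGB made up 12822. The sum was 109 in small intestine, led by ALB at 89.1, with TF, CYP7A1 and FGB at 0. In salivary glands it was 123, led by SERPINA1 at 120, with APOB, TTR, CYP7A1 and FGB at 0. ALB in small intestine and SERPINA1 in salivary glands stood within the top 2.04% and 1.52% of all genes by FPKM. Without the most abundant marker of each library the sums were 20.3, 2.90 and 1727, in the order small intestine, salivary glands, liver. The part of these cells in any result was not tested.

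In each library the score was close to the count times 1 factor, which was 1.57 for the small intestine, 1.35 for the salivary gland and 0.916 for the liver library. For 6124, 6141 and 6344 genes, in the same order, the count differed from the score over that factor by more than 0.5, at most by 1.43 counts.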
